A study of Mus musculus with 8 samples.

Results

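Translation initiation factors and the proteins that regulate them were followed in whole hearts of 8 mice, 4 female and 4 male. The genes were taken by name: every row of the deposited table whose symbol begins with Eif and a digit, leaving out 1 pseudogene name and the X and Y partners Eif2s3x and Eif2s3y. This gave 52 of 17911 genes, all 52 of which matched the mm10 annotation by gene identifier. The table lists only genes with at least 81 reads over the 8 hearts, and no further filter was applied, so all 52 were tested. All mice were wild-type C57Bl6/J, without any mutation or treatment named in the labels, and were 4 weeks old according to the series description or 4 to 6 weeks old according to the sample protocol. Each library came from the RNA of 1 heart, and all carry the same batch label.

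Initiation brings a ribosome to the start codon of an mRNA. The initiator tRNA is delivered by eIF2 bound to GTP, while eIF3, eIF1, eIF1A and eIF5 hold the small ribosomal subunit in a state that can scan. The cap of the mRNA is bound by eIF4E, which joins the scaffold eIF4G and the RNA helicase eIF4A, and the small eIF4E-binding proteins block that junction until mTOR phosphorylates them. Kinases that sense stress phosphorylate eIF2, which then blocks its exchange factor eIF2B, lowers general initiation and favours translation of a few mRNAs such as that of the transcription factor ATF4. The heart depends on these controls during growth, when muscle cells enlarge mainly by making more protein.

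The libraries held between 51699331 and 75742388 reads assigned to genes. Fewest reads were in female replicates 3 and 4 and male replicate 5. Values below, called normalized reads, are deposited counts that were each divided by the size factor of their heart. The 7 cardiomyocyte markers followed (Myh6, Tnnt2, Tnni3, Actc1, Myl2, Ryr2 and Pln) took up 6.27% to 7.01% of all normalized reads in single hearts, so heart muscle was present in each library. In whole-heart RNA, fewer cells of a type and less RNA per cell cannot be told apart. Summed levels of the 7 macrophage markers ran from 12308 to 14433 normalized reads in females and from 15365 to 18964 in males, without overlap. Fibroblast (77003 to 89101 against 82791 to 91962) and endothelial marker sums (57206 to 63214 against 57466 to 65260) overlapped between the sexes. No defining marker measured was at 0 in these 4 lists, and their part in the differences below was not tested.

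None of the 52 genes differed between female and male hearts at an adjusted p under 0.05 in the limma fit over all genes, where 1.16% of all genes did. The median log2 difference (female minus male, so that a positive value means higher in females) was 0.0016 over the 52 genes and 0.0023 over all genes. At an unadjusted p under 0.05 there were 8 of 52, or 15.4%, beside 16% of all genes. In edgeR (TMM or RLE) and limma-voom 0 of the 52 were called as well. The smallest p-values belonged to a pair of genes: Eif4e, which encodes the cap-binding protein, was 12.3% lower in mean value in females, and Eif1, which encodes a guardian of start codon choice, was 7.37% higher. These 2 genes had an adjusted p under 0.05 in the authors' deposited table (0.0182 for Eif4e and 0.0292 for Eif1), where 3.85% of all genes did, beside 2 of 52 (3.85%). Both shares count as not called the genes whose adjusted p is NA there (3823 of all genes, Eif4ebp3 among them). DESeq2 on the reads recovered from the same deposited values called 690 genes (3.85%), as the deposited table does, with Eif4e and Eif1 and no other member. It repeats the deposited result on the same reads and adds no separate evidence.

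**Figure D1:**
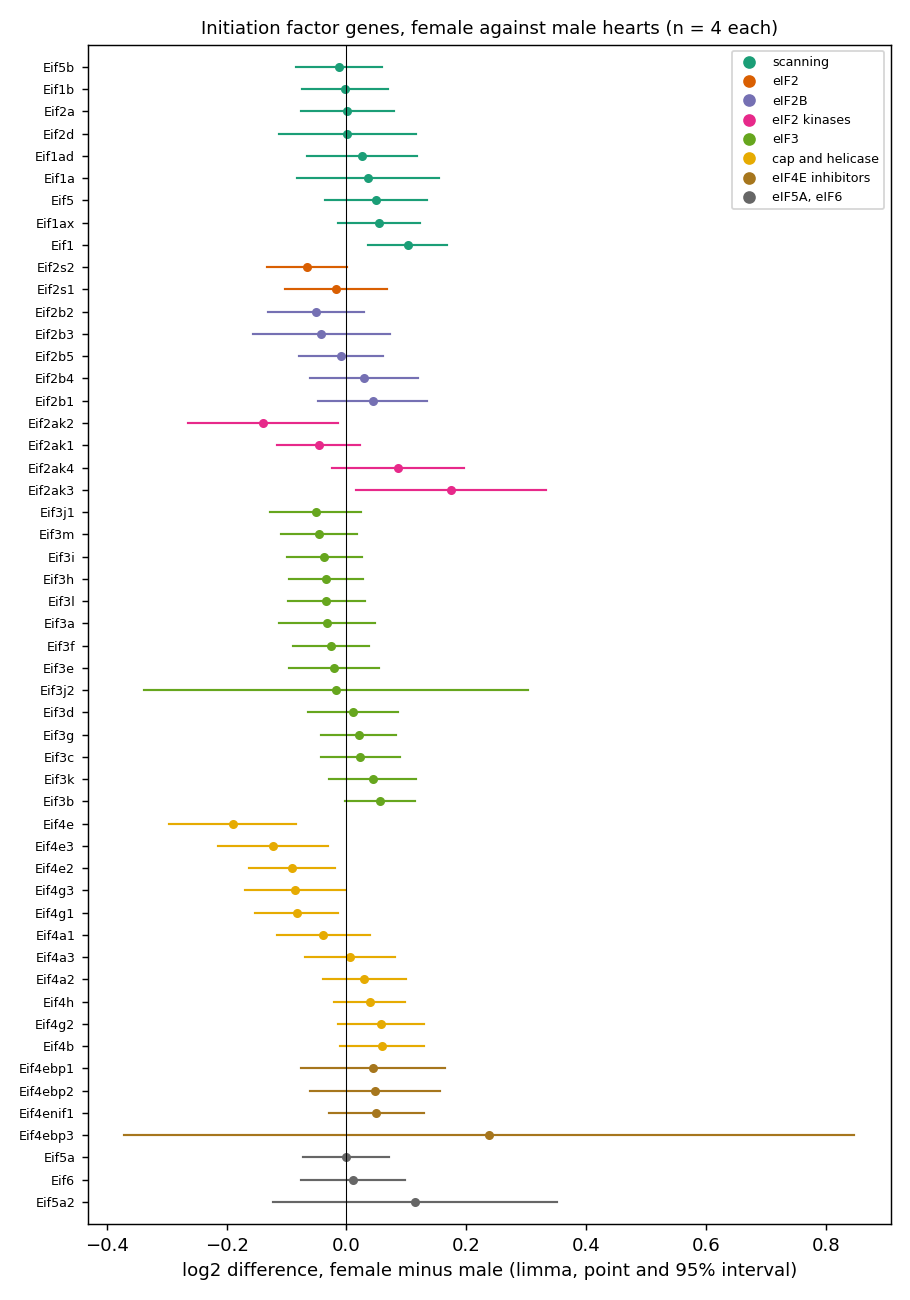
Log2 difference between female and male hearts (x axis, limma, point with 95% interval) for the 52 initiation factor genes, coloured by role and ordered within each role. Most points lie within 0.1 of 0, Eif4e lies lowest at -0.19, and the widest interval is that of Eif4ebp3, which has the fewest reads.

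The intervals were narrow. In 49 of the 52 genes the 95% interval of the difference lay wholly within 25% of no change. The exceptions were Eif4ebp3, Eif5a2 and Eif2ak3, the first of which averaged 24.8 normalized reads per heart. The median size of the difference, without sign, was 0.04 on the log2 scale for these genes and 0.08 over all genes. Over all 8 hearts the coefficient of variation had a median of 3.46% (range 1.44% in Eif3g to 30.1% in Eif4ebp3), and 41 of 52 genes lay under 5%. For all genes the median was 8.41%. These genes were also more highly expressed, with a median of 3824 normalized reads against 594 over all genes, and low counts vary more.

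**Figure D2:**
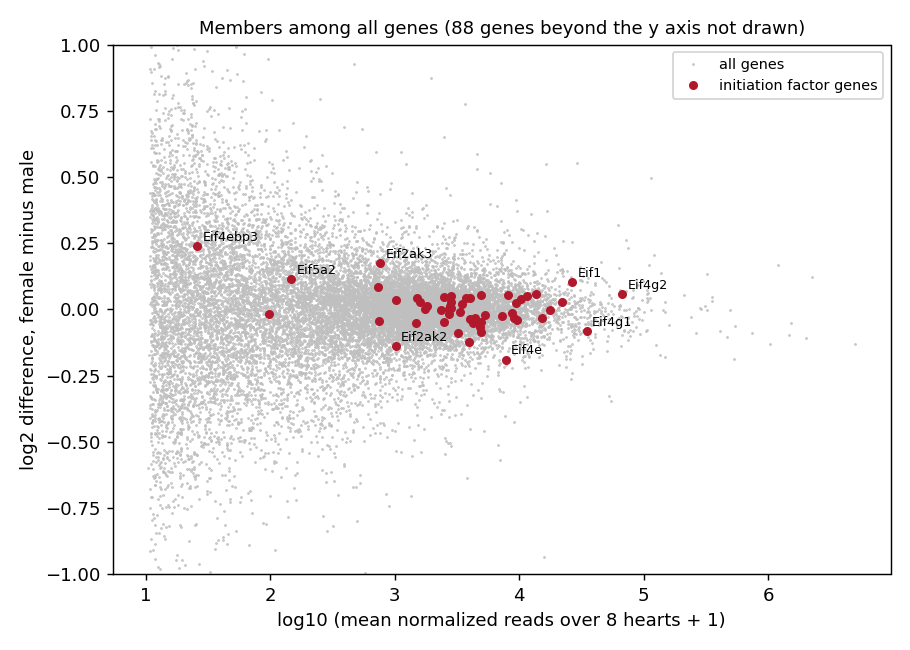
Log2 difference between the sexes (y axis) against the log10 of the mean normalized reads over 8 hearts plus 1 (x axis), for all genes in grey and for the 52 initiation factor genes in red; 88 genes lie beyond the y axis. Members sit in the upper range of expression and close to 0, apart from a few low genes such as Eif4ebp3.

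Of the 11 measured genes of the cap-binding complex and its helicases, 5 had an unadjusted p under 0.05 (Eif4e, Eif4e2, Eif4e3, Eif4g1 and Eif4g3). This is 45.5%, beside 16% of all genes, and none passed after adjustment. The other such genes were 2 of 4 eIF2 kinases and 1 of 9 scanning and joining factors, with 0 of 14 in eIF3. Whether such values gather in the cap-binding role was not tested. Eif4e (ENSMUSG00000028156, chromosome 3, 138526179 to 138559696, plus strand, mm10) had 7017, 7328, 7870.4 and 6900.2 normalized reads in female replicates 1 to 4 and 7948, 7919, 8442 and 8902 in male replicates 1, 3, 4 and 5. Every male heart lay above every female heart, by a slim margin between female replicate 3 and male replicate 3. Mean values were 7279 ± 434 in females and 8303 ± 466 in males (mean ± SD of 4 hearts; log2 difference -0.19, SE 0.048, 95% interval -0.30 to -0.085, limma adjusted p = 0.0864). That adjusted p ran from 0.0182 to 0.45 over 19 alternative settings, with the difference between -0.23 and -0.16 in all of them. The highest value came from blocks by library code number, while blocks by title number gave 0.261. In both blocked fits fewer hearts inform the difference, and why the 2 fits differ was not tested.

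The promoter of Eif4e is shown because this gene had the smallest p of the group and because its window holds the E-box CACGTG, a motif bound by MYC, MAX and USF proteins, 2 times. RefSeq lists 2 starts for the gene. Below are the 250 bases before the downstream start (GRCm38.p6, chr3:138527018-138527267, plus strand), 5′ to 3′, with the E-boxes in capitals; they begin at positions -228 and -64 counted from the start.
Eif4e: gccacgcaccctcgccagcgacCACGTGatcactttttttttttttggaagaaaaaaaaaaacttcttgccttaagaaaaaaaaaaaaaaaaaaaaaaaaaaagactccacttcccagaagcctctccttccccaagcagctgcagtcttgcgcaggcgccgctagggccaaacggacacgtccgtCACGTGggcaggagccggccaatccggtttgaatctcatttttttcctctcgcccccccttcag

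An E-box lay in the 250 bases before a listed start for 9 of the 41 initiation factor genes with a RefSeq promoter (22%), and in 6.86% of the 27025 genes of the promoter table. The motif reads alike on both strands. The promoter table is not limited to genes measured in these hearts and was not matched to the members in expression. The other 8 genes with the motif were Eif1b, Eif3f, Eif3k, Eif4a1, Eif4g1, Eif4h, Eif5a and Eif5a2. Their differences between the sexes ranged from -0.083 (Eif4g1) to 0.11 (Eif5a2) and had no common sign. The stretches below carry the E-box in capitals with 15 bases on each side, to show that it sits in unlike surroundings at the genes described next (Eif4g1 at chr16:20672658-20672693, plus strand; Eif4a1 at chr11:69672592-69672627, minus strand; Eif4h at chr5:134639485-134639520, minus strand; Eif5a at chr11:69921440-69921475, minus strand; all GRCm38.p6).
Eif4g1: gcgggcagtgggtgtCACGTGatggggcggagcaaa
Eif4a1: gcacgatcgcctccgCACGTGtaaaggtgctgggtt
Eif4h: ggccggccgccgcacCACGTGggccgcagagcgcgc
Eif5a: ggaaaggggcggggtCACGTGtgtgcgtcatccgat
A motif match describes letters in a window and is not evidence of binding in these hearts.

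Both relatives of Eif4e also had lower mean values in females. Eif4e2, whose product binds the cap weakly and is known for repressing translation of selected mRNAs, had 3133, 3090.3, 3171 and 3179 in females and 3396, 3391, 3419 and 3183 in males. The sexes barely missed each other, since male replicate 5 stood well below the other males (log2 difference -0.090, SE 0.033, 95% interval -0.16 to -0.019, limma adjusted p = 0.207). Eif4e3, a muscle-rich relative, had 3789.5, 3773, 3864 and 3597 in females and 4183, 4271, 3759.7 and 4159.5 in males, and male replicate 4 fell among the females (log2 difference -0.12, SE 0.042, 95% interval -0.21 to -0.031, limma adjusted p = 0.179). The ratio of Eif4e2 to Eif4e was 0.433 ± 0.0257 in females and 0.405 ± 0.0331 in males (difference of the log2 ratio 0.10, two-sided exact permutation p = 0.286, adjusted 0.588, n = 4 each). For Eif4e3 to Eif4e it was 0.517 ± 0.0203 in females and 0.495 ± 0.0454 in males (difference of the log2 ratio 0.067, two-sided exact permutation p = 0.4, adjusted 0.6, n = 4 each). Per kilobase of annotated exon, Eif4e3 (1560.5 ± 97.6 normalized reads, SD over 8 hearts) was the highest of the 3, followed by Eif4e (1297 ± 114) and Eif4e2 (433 ± 17.8). With the longest coding transcript as length Eif4e (1561) and Eif4e3 (1560.5) were level, and Eif4e2 (934) stayed lowest. Exons of Eif4e3 overlap the predicted gene Gm20696 on the same strand, so reads there may have been assigned to either.

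The eIF4G scaffolds did not share a direction. Eif4g1, the main scaffold that joins eIF4E, eIF4A and eIF3, had 33873, 33748, 34226 and 33557 normalized reads in female replicates 1 to 4 and 34833, 35829.5, 35092 and 37706 in male replicates 1, 3, 4 and 5. All females lay below all males, and male replicate 5 stood highest (log2 difference -0.083, SE 0.032, 95% interval -0.15 to -0.014, limma adjusted p = 0.231). Eif4g3, a second scaffold that also binds eIF4E, had 4905, 4989, 4771 and 4488 in females and 5183, 5224, 5019 and 4891 in males, with male replicate 5 inside the female range (log2 difference -0.086, SE 0.038, 95% interval -0.17 to -0.0025, limma adjusted p = 0.298). Eif4g2, which encodes a shorter relative that lacks the eIF4E-binding site and serves cap-independent initiation, had 66302, 67692, 71601 and 67326 in females and 64549.6, 65344, 64689 and 67646 in males. Its mean was higher in females, but male replicate 5 lay inside the female range (log2 difference 0.057, SE 0.033, 95% interval -0.015 to 0.13, limma adjusted p = 0.435).

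Taken within each heart, the ratio of Eif4g2 to Eif4g1 was higher in all females than in all males. The ratio was 1.96, 2.01, 2.09 and 2.01 in females and 1.85, 1.82, 1.84 and 1.79 in males, without overlap (difference of the log2 ratio 0.14, two-sided exact permutation p = 0.0286, adjusted 0.171, n = 4 each). The unadjusted value is the smallest p that 4 against 4 hearts allow, and the ratio does not pass after adjustment over the 12 ratios compared. Leaving out single hearts gave differences of 0.12 to 0.15. The ratio of Eif4g3 to Eif4g1 was 0.141 ± 0.0062 in females and 0.142 ± 0.00842 in males (difference of the log2 ratio -0.0031, two-sided exact permutation p = 0.943, adjusted 1, n = 4 each). Of the ratios, 2 of 12 had no overlap between the sexes, Eif4g2 to Eif4g1 and Eif1b to Eif1.

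**Figure D3:**
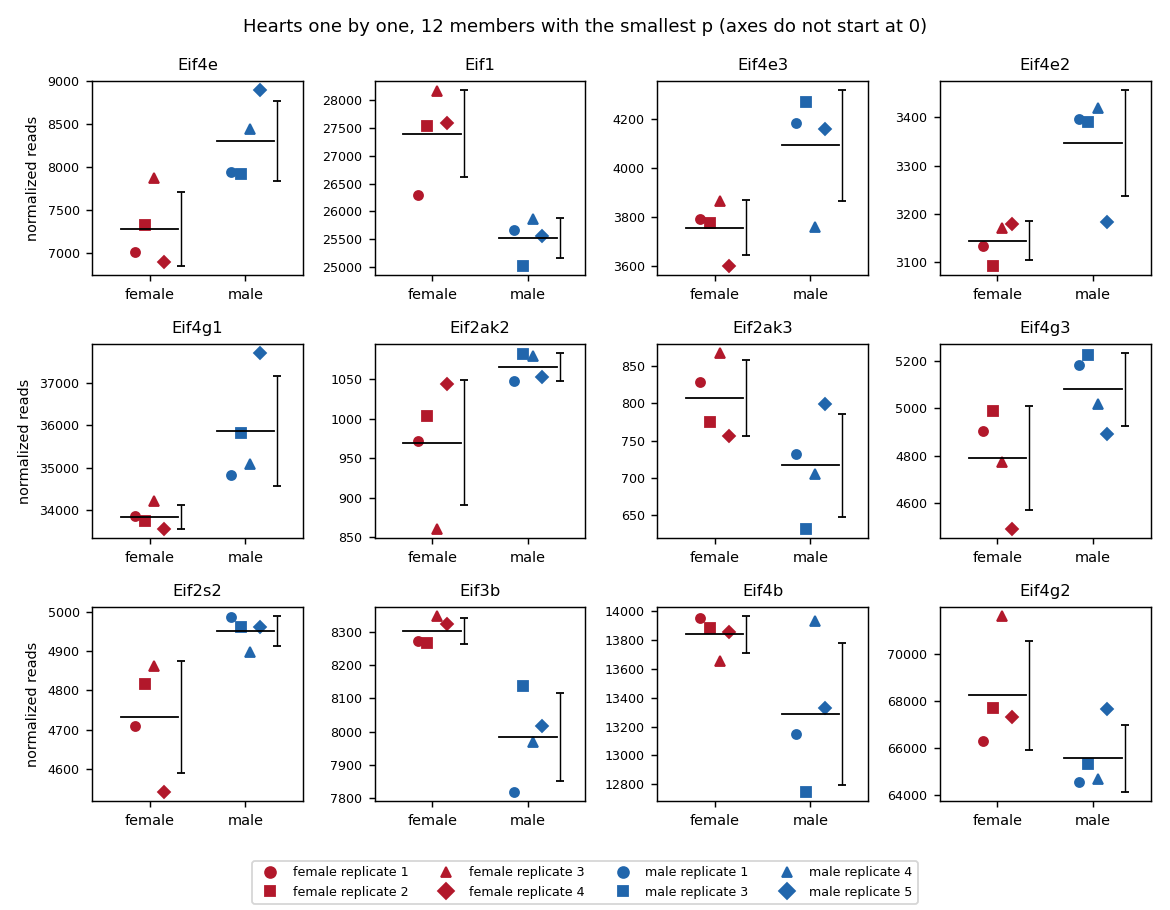
Normalized reads (y axis, linear, not starting at 0) in each of the 4 female and 4 male hearts for the 12 initiation factor genes with the smallest p; each symbol is 1 heart, the line is the mean and the bar its SD. Female and male hearts do not overlap for Eif4e, Eif1, Eif4e2, Eif4g1, Eif2ak2, Eif2s2 and Eif3b, with margins that are small beside the spread for Eif4e, Eif4e2, Eif2ak2 and Eif2s2.

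No helicase gene of the complex passed the test. Eif4a1 and Eif4a2 encode near-identical RNA helicases that unwind the start of the mRNA. Eif4a1 had 9139, 9155, 9389 and 9869 in females and 9338, 9377, 9999.7 and 9848 in males (log2 difference -0.038, SE 0.036, 95% interval -0.12 to 0.039, limma adjusted p = 0.656), and Eif4a2 had 21496, 22533, 21624 and 23042 in females and 22009.5, 21806, 21905 and 21137 in males (log2 difference 0.030, SE 0.032, 95% interval -0.040 to 0.099, limma adjusted p = 0.709). Values of both genes overlapped widely. Per kilobase of exon Eif4a2 (4111 ± 113 normalized reads) exceeded Eif4a1 (2195 ± 78.4), and in every heart Eif4a2 had 2.15 to 2.46 times the reads of Eif4a1 (difference of the log2 ratio 0.068, two-sided exact permutation p = 0.2, adjusted 0.588, n = 4 each). Small nucleolar RNAs lie within both loci and Rfc4 overlaps Eif4a2 on the opposite strand, with the strand setting of the counting not given. Their RNA-binding helper Eif4b had 13956, 13887, 13657 and 13860.1 in females and 13148, 12744, 13932 and 13330.5 in males, higher in mean in females except that male replicate 4 lay inside the female range (log2 difference 0.059, SE 0.032, 95% interval -0.010 to 0.13, limma adjusted p = 0.393). Eif4h, a smaller helper, had no overlap between the sexes at a log2 difference of 0.039 (interval -0.021 to 0.099), and Eif4a3, which marks spliced exon junctions rather than acting in scanning, had 0.0062 (interval -0.068 to 0.081).

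The inhibitors of eIF4E had positive log2 differences, none of which passed the test. Eif4ebp1 (eIF4E-binding protein 1) had 4145, 3893, 4143 and 4123 normalized reads in female replicates 1 to 4 and 3793, 3685, 3894 and 4485 in male replicates 1, 3, 4 and 5. Male replicate 5 was the highest of all hearts and the other 3 males were near or below the lowest female (log2 difference 0.044, SE 0.055, 95% interval -0.076 to 0.16, limma adjusted p = 0.757). Eif4ebp2 had 2453, 2566, 2588 and 2543 in females and 2512, 2668, 2222 and 2435 in males, with male replicates 3 and 4 at the extremes (log2 difference 0.048, SE 0.050, 95% interval -0.060 to 0.16, limma adjusted p = 0.696). Eif4ebp3 had the fewest reads of the 52 genes, with 30.1, 28.1, 27.7 and 19.5 in females and 22, 37.9, 16.2 and 16.9 in males, and its interval spans a fall and a rise alike (log2 difference 0.24, SE 0.28, 95% interval -0.37 to 0.85, limma adjusted p = 0.739). Exons of Eif4ebp3 overlap the protein-coding gene AC115631.1 on the same strand. Reads there may have been assigned to that gene or dropped, so the level of Eif4ebp3 may be understated.

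Per kilobase of exon Eif4ebp1 (1831 ± 116 normalized reads) was the leading inhibitor, followed by Eif4ebp2 (432 ± 23.2) and Eif4ebp3 (33.3 ± 10). The ratio of Eif4ebp2 to Eif4ebp1 varied more among males, from 0.543 in replicate 5 to 0.724 in replicate 3, than among females, from 0.592 to 0.659 (difference of the log2 ratio 0.0042, two-sided exact permutation p = 1, adjusted 1, n = 4 each). The spread itself was not tested. Single hearts moved the log2 differences of the 3 eIF4E-binding protein genes by over 1.5 times. Without 1 heart, Eif4ebp1 ranged from 0.010 (male replicate 3 left out) to 0.10 (male replicate 5). Eif4ebp2 ranged from 0.00018 (male replicate 4) to 0.088 (male replicate 3), and Eif4ebp3 from 0.10 (male replicate 4) to 0.49 (male replicate 3). With total reads as a covariate Eif4ebp1 turned to -0.018, and with blocks by library code number Eif4ebp2 turned to -0.0052. The ratio of Eif4ebp3 to Eif4ebp1 was 0.00647 ± 0.00119 in females and 0.006 ± 0.00298 in males (difference of the log2 ratio 0.21, two-sided exact permutation p = 0.571, adjusted 0.762, n = 4 each). Eif4enif1, whose product carries eIF4E into the nucleus and to P-bodies, had a log2 difference of 0.050 (interval -0.029 to 0.13).

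Scanning factors were led by Eif1. It had 26297, 27546, 28166 and 27598 normalized reads in female replicates 1 to 4 and 25662, 25008, 25861 and 25557 in male replicates 1, 3, 4 and 5. Each female heart exceeded each male heart, the closest being female replicate 1 and male replicate 4. Means were 27402 ± 788 in females and 25522 ± 365 in males (mean ± SD of 4 hearts; log2 difference 0.10, SE 0.030, 95% interval 0.036 to 0.17, limma adjusted p = 0.133). Its adjusted p ran from 0.0292 to 0.504 over the 19 settings, and the difference stayed between 0.09 and 0.12. Eif1 was also the most abundant of all 52 genes, at 12613 ± 550.3 normalized reads per kilobase of exon.

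The promoter of Eif1 (ENSMUSG00000035530, chromosome 11, 100319885 to 100322096, plus strand, mm10) is shown as that of the gene with the next smallest p. It holds 1 GC-box (GGGCGG, or CCGCCC on the other strand, a motif bound by SP1 and its relatives), in capitals, which begins at position -98 (GRCm38.p6, chr11:100319699-100319948, plus strand). A GC-box lay in the same window of 30 of the 41 initiation factor genes (73.2%) and of 35.4% of all genes in the promoter table. That table was not matched to the members in expression here either.
Eif1: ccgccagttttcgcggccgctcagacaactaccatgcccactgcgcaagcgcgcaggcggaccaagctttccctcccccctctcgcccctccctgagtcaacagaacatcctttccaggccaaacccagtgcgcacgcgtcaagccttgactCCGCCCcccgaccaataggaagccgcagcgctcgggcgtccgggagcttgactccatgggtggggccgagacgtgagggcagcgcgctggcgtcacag

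Eif1b, a close copy of Eif1 on chromosome 9, had nearly equal means in the sexes. It had 2327, 2308, 2429.7 and 2353 in females and 2302, 2332, 2407 and 2389 in males (log2 difference -0.0019, SE 0.033, 95% interval -0.074 to 0.070, limma adjusted p = 0.987), and the direction of so small a value changed with the settings. The ratio of Eif1b to Eif1 was lower in each female heart than in each male heart, with 0.0885, 0.0838, 0.0863 and 0.0853 in females and 0.0897, 0.0932, 0.0931 and 0.0935 in males (difference of the log2 ratio -0.10, two-sided exact permutation p = 0.0286, adjusted 0.171, n = 4 each). As with the scaffold ratio, this is the smallest p the design allows and it does not pass after adjustment.

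The pair that encodes eIF1A is split between an autosome and the X chromosome. Eif1ax (ENSMUSG00000067194, chromosome X, 159372178 to 159389928, plus strand) had 4957, 5108, 5243 and 4905 in females and 4892, 4826, 4765 and 4976 in males, overlapping between the sexes (log2 difference 0.055, SE 0.032, 95% interval -0.014 to 0.12, limma adjusted p = 0.437). Eif1a, on chromosome 18, had 1041, 1059, 926 and 1101 in females and 1007, 984, 1032 and 996 in males (log2 difference 0.036, SE 0.055, 95% interval -0.083 to 0.15, limma adjusted p = 0.808). Their ratio was 0.205 ± 0.0201 in females and 0.207 ± 0.0071 in males (difference of the log2 ratio -0.019, two-sided exact permutation p = 0.886, adjusted 1, n = 4 each). For comparison, the X-linked Eif2s3x had a log2 difference of 0.77 in the same fit.

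The remaining scanning and joining factors had log2 differences under 0.05 in size. Eif5, the GTPase activator of eIF2, had a log2 difference of 0.049 (interval -0.035 to 0.13), and Eif5b, the GTPase that joins the ribosomal subunits, had -0.012 (interval -0.084 to 0.060). Eif2a and Eif2d, whose products can bring initiator tRNA without eIF2, had 0.0016 and 0.0017 (intervals -0.076 to 0.079 and -0.11 to 0.12). Eif1ad had 0.026 (interval -0.065 to 0.12). Exons of Eif1ad and Eif2a overlap Banf1 and Serp1 on the opposite strand. Of the 9 genes of this role, 7 had a positive and 2 a negative sign.

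Both autosomal subunits of eIF2 were measured. Eif2s1, the subunit that the stress kinases phosphorylate, had 2626, 2832, 2559 and 2734 in females and 2683, 2819.9, 2632 and 2744 in males, with wide overlap (log2 difference -0.018, SE 0.039, 95% interval -0.10 to 0.068, limma adjusted p = 0.875). Eif2s2 had 4709, 4817, 4864 and 4539.6 in females and 4987, 4963, 4898 and 4962 in males. All females lay below all males by a small margin, while the difference did not pass (log2 difference -0.066, SE 0.031, 95% interval -0.13 to 0.00071, limma adjusted p = 0.316). The ratio of Eif2s2 to Eif2s1 was 1.76 ± 0.107 in females and 1.82 ± 0.0479 in males (difference of the log2 ratio -0.048, two-sided exact permutation p = 0.343, adjusted 0.588, n = 4 each). The gene of the third subunit is present on both sex chromosomes and was left out of the group: Eif2s3x had 4666 ± 50.3 in females and 2726 ± 17.7 in males and Eif2s3y 23.7 ± 19.8 in females and 4079 ± 83.5 in males.

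The 5 subunits of eIF2B, the exchange factor that reloads eIF2 with GTP, lay between -0.051 (Eif2b2) and 0.044 (Eif2b1), with 2 positive and 3 negative values. All 5 overlapped between the sexes. Eif2b5, the catalytic subunit, had 3363, 3344, 3396 and 3158 in females and 3300.1, 3360.3, 3340.3 and 3338 in males (log2 difference -0.0088, SE 0.032, 95% interval -0.079 to 0.061, limma adjusted p = 0.927). Its level per kilobase of exon (1281 ± 28 normalized reads) was the highest of the 5 and that of Eif2b3 (114 ± 4.78) the lowest. With the longest coding transcript as length, Eif2b4 took the lead at 1396 against 1302 for Eif2b5, and Eif2b3 remained lowest at 198. Exons of Eif2b4 overlap Snx17 on the opposite strand, which averaged 4055 normalized reads against 2828 for Eif2b4. With the strand setting of the counting not given, the level of Eif2b4 is uncertain.

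The 4 kinases of eIF2 pointed both ways. Eif2ak2, which encodes the double-stranded RNA sensor PKR, had 972, 1004, 860.3 and 1044 normalized reads in female replicates 1 to 4 and 1048, 1083, 1079 and 1053 in male replicates 1, 3, 4 and 5. Males were tightly grouped above the females, and female replicate 3 was far the lowest (log2 difference -0.14, SE 0.058, 95% interval -0.26 to -0.014, limma adjusted p = 0.264). Without that heart the difference was -0.083. Eif2ak3, which encodes PERK of the endoplasmic reticulum, had 829, 775, 868 and 756 in females and 732, 631, 705 and 799 in males. Its mean was higher in females, yet male replicate 5 lay inside the female range (log2 difference 0.17, SE 0.073, 95% interval 0.016 to 0.33, limma adjusted p = 0.269). Without male replicate 3 that difference was 0.11.

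Eif2ak4, the amino acid sensor GCN2, had 765, 756, 719 and 773 in females and 723, 707, 673 and 735 in males (log2 difference 0.086, SE 0.051, 95% interval -0.023 to 0.20, limma adjusted p = 0.44), and Eif2ak1, the haem-regulated kinase HRI, had 2431, 2477, 2367 and 2471 in females and 2493, 2524, 2475 and 2572 in males (log2 difference -0.046, SE 0.032, 95% interval -0.12 to 0.023, limma adjusted p = 0.526). The sexes overlapped in both. Eif2ak1 was the most abundant kinase transcript per kilobase of exon (437 ± 10.7 normalized reads), followed by Eif2ak2 (199 ± 14.4), Eif2ak3 (126 ± 12.3) and Eif2ak4 (98.1 ± 4.46), and the order was the same with the longest coding transcript as length. The ratio of Eif2ak1 to Eif2ak3 was 2.93, 3.2, 2.73 and 3.27 in females and 3.4, 4, 3.51 and 3.22 in males (difference of the log2 ratio -0.22, two-sided exact permutation p = 0.0571, adjusted 0.229, n = 4 each). Exons of Eif2ak1 overlap Aimp2 and Ankrd61 on the opposite strand.

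The 14 genes of eIF3, the large scaffold on the small ribosomal subunit, had the smallest median spread within a sex of the 8 roles. Their log2 differences lay between -0.051 (Eif3j1) and 0.056 (Eif3b), with 5 positive and 9 negative values and a median of -0.02. Their median SD within a sex was 0.03 on the log2 scale, compared with 0.04 over the 52 genes and 0.11 over all genes. Eif3b, a core subunit, had 8272, 8266, 8348 and 8324 in females and 7817, 8138, 7969 and 8016 in males. Every female heart exceeded every male heart in this gene, by a few percent (log2 difference 0.056, SE 0.027, 95% interval -0.0024 to 0.12, limma adjusted p = 0.334). Summed over the 14 genes, normalized reads were 81866 ± 249 in females and 82491 ± 907 in males (mean ± SD, 4 hearts each).

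Although the proteins work in 1 complex, eIF3 transcripts were not equal in level. Leaving out Eif3j2, they ranged from 565 ± 14.6 (Eif3d) to 5668 ± 118 (Eif3h) normalized reads per kilobase of exon, a 10.04-fold range. With the longest coding transcript as length the range was 8.98-fold, from 786 (Eif3j1) to 7055 (Eif3h), so the place of a subunit in the order depends on the length used. Eif3h itself had 8856, 9064, 9231 and 8965 in females and 9217, 9044, 9261 and 9452 in males (log2 difference -0.034, SE 0.029, 95% interval -0.096 to 0.028, limma adjusted p = 0.618). Eif3j2, a copy of Eif3j1, was low at 96.4 normalized reads on average, and reads shared by these copies may have been split or dropped.

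Eif3f is shown for its start, because an mRNA that begins with C and a run of pyrimidines is known to follow mTOR. It was the 1 initiation factor gene of 41 (2.44%) whose RefSeq start was a C followed by at least 4 bases that are C or T, as in 3.01% of all genes in the promoter table. The first 20 bases follow, with the C and its pyrimidine run in capitals (GRCm38.p6, chr7:108934415-108934434, plus strand).
Eif3f: CTCTCTTTCTCggcaagatg
Expression of Eif3f did not pass the test, at 7199.8 ± 50.2 in females and 7333 ± 189 in males (mean ± SD of 4 hearts; log2 difference -0.026, interval -0.089 to 0.037). RefSeq starts can lie some bases off the start used in heart.

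Eif5a, a factor that carries the modified amino acid hypusine and helps ribosomes through difficult stretches, had 17972, 17606, 18599.5 and 16944 in females and 17684, 17860.1, 18008 and 17558 in males. The means were 17780.5 ± 692 in females and 17777 ± 197 in males (log2 difference -0.00049, SE 0.033, 95% interval -0.072 to 0.071, limma adjusted p = 0.997). It was the second most abundant of the 52 genes per kilobase of exon (7479.5 ± 198 normalized reads), while its copy Eif5a2 was the least abundant (29.1 ± 2.67), and these places held with either length. Eif5a2 had 146, 154, 150.1 and 156 in females and 136, 125, 136 and 167 in males (log2 difference 0.11, SE 0.11, 95% interval -0.12 to 0.35, limma adjusted p = 0.666), a ratio to Eif5a of 0.00854 ± 0.000534 in females and 0.00793 ± 0.00108 in males (difference of the log2 ratio 0.12, two-sided exact permutation p = 0.343, adjusted 0.588, n = 4 each). The difference of Eif5a2 was 0.059 without male replicate 3, 0.20 without male replicate 5 and 0.027 with total reads as a covariate. Eif6, which keeps the ribosomal subunits apart, had a log2 difference of 0.011 (interval -0.075 to 0.098).

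**Figure D4:**
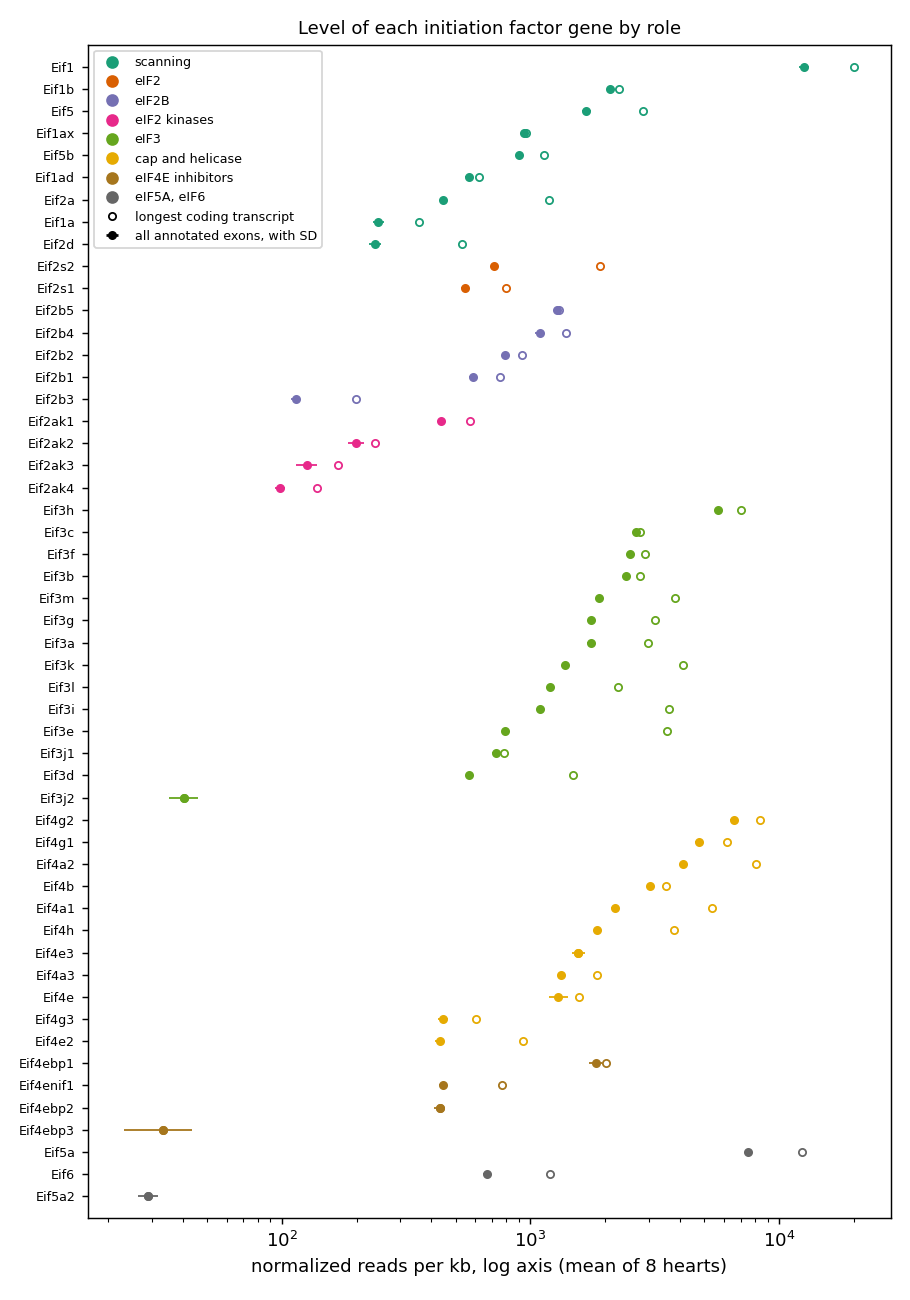
Normalized reads per kilobase (x axis, log scale, mean of 8 hearts) for the 52 initiation factor genes by role, with all annotated exons as length (filled, bar is the SD) or the longest coding transcript (open). Eif1, Eif5a and Eif4g2 lead and Eif3j2, Eif4ebp3 and Eif5a2 trail with either length.

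Counted together, 8 of the 52 genes had no overlap between the sexes (15.4%, beside 9.35% of all genes). Higher in females were 3 of them, Eif1, Eif3b and Eif4h (4.52% of all genes), and lower were 5, Eif4e, Eif4e2, Eif4g1, Eif2ak2 and Eif2s2 (4.82% of all genes). The macrophage marker sum given above was lower in females too. That the 5 lower genes share its direction follows from how they were grouped, and a link was not tested. The 25 genes not described one by one by the naming rule had log2 differences between -0.05 and 0.05. As a share of all normalized reads the 52 genes took 0.571% to 0.594% in single hearts, with 0.585% ± 0.0061 in females and 0.576% ± 0.00399 in males (mean ± SD, 4 hearts each).

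**Figure D5:**
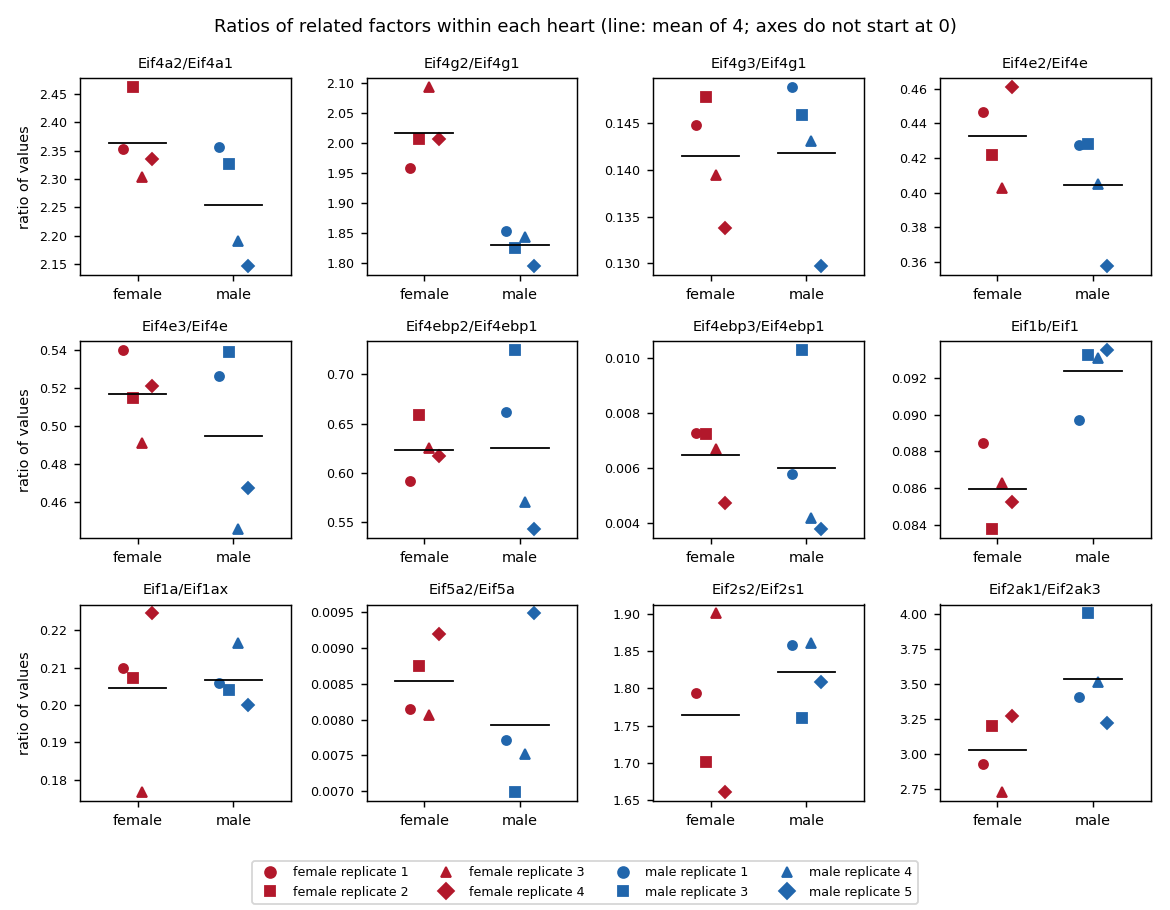
Ratio of the values of 2 related factors (y axis, linear, not starting at 0) within each of the 4 female and 4 male hearts, for the 12 ratios compared; each symbol is 1 heart and the line is the mean. The sexes separate in Eif4g2 to Eif4g1 and in Eif1b to Eif1 and overlap in the other ratios.

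Genes around the initiation factors were followed as well. Of 34 measured genes listed as binding, modifying or signalling to these factors, 0 passed in limma, where 1.16% of all genes did. At that share a list of 34 or of 52 genes may hold no call. At an unadjusted p under 0.05 there were 4 (11.8%, beside 16% of all genes), and the median log2 difference was -0.02. The list was made by name and holds Nat1 (chromosome 8), which is not known as an initiation gene and is counted in these values. DESeq2 called 1 of the 34, Mknk1, where it called 3.85% of all genes. No overlap between the sexes was seen in 2 of the 34, Mknk1 and Mcts1, both lower in females (5.88%, beside 9.35% of all genes). Mknk1 encodes a kinase that phosphorylates eIF4E. It had 1487, 1527, 1364 and 1456 in females and 1565, 1693, 1696 and 1636 in males (log2 difference -0.18, SE 0.045, 95% interval -0.27 to -0.078, limma adjusted p = 0.0864). Pdcd4, an inhibitor of eIF4A, had 1276, 1423, 1402 and 1347 in females and 1284, 1084, 1185 and 1272 in males, higher in mean in females with overlap (log2 difference 0.18, SE 0.058, 95% interval 0.051 to 0.30, limma adjusted p = 0.164). Mcts1, an X-linked partner in ribosome recycling and reinitiation, had 1090.2, 1099.6, 1118 and 1133 in females and 1197, 1275, 1185 and 1180.2 in males, without overlap (log2 difference -0.12, SE 0.042, 95% interval -0.21 to -0.032, limma adjusted p = 0.175).

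Of 21 measured ATF4 and stress response genes, 0 passed in limma, 4 had an unadjusted p under 0.05 (19%, beside 16% of all genes) and the median was -0.01. The sexes did not overlap in 3 of the 21, Mthfd2, Atf4 and Atf3, all lower in females (14.3%, beside 9.35% of all genes). DESeq2 called 2, Mthfd2 and Atf3, where it called 3.85% of all genes. Mthfd2, a mitochondrial folate enzyme gene, had 135, 147, 150.1 and 152 normalized reads in female replicates 1 to 4 and 177, 235, 199 and 210.0 in male replicates 1, 3, 4 and 5. All males exceeded all females (log2 difference -0.48, SE 0.11, 95% interval -0.71 to -0.25, limma adjusted p = 0.0542). Besides DESeq2, it passed in limma when low genes were filtered out (adjusted p = 0.0494) and when male replicate 1 was omitted (adjusted p = 0.0458). In the other 16 of the 19 alternative settings Mthfd2 did not pass, with an adjusted p of up to 0.27. Its difference stayed between -0.55 and -0.41. Atf4 had 3739, 3922, 4035 and 4050.0 in females and 4177, 4463, 4545 and 4117 in males, again without overlap (log2 difference -0.14, SE 0.041, 95% interval -0.22 to -0.047, limma adjusted p = 0.135). Atf3, an early stress gene, had 229.9, 259, 232 and 323 in females and 335, 621, 329 and 459 in males, with the males widely spread and none inside the female range (log2 difference -0.70, SE 0.21, 95% interval -1.18 to -0.22, limma adjusted p = 0.161). Chac1, an ATF4 target, pointed the other way and did not pass with all hearts (log2 difference 0.53, limma adjusted p = 0.289). It passed without male replicate 5 (log2 difference 0.76, limma adjusted p = 0.0123) and with blocks by title number (0.79, limma adjusted p = 0.0467). In the other 17 of 19 settings it did not pass, with an adjusted p of up to 0.513, and the difference fell as low as 0.30. Chac1 is named after its values were seen.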

How the data were processed

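RNA from 8 single hearts (4 per sex) was sequenced; the labels name a small RNA extraction kit and give the molecule as total RNA. The deposited signal, 1 column for each heart, proved from its steps to be read counts over a size factor (0.821 to 1.17): all values (100%) gave whole reads within 0.001, and these reads were used in count models. The authors' log2 fold changes and p-values stand in the same deposited table; their adjusted p is NA for 3823 genes. The build is mm10 per the submitters' processing notes, and which aligner, counter and strand setting were applied is not given in the sources used here.

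Female and male hearts were compared with limma 3.58.1 (trend, robust; R 4.3.3) on log2(value + 1) with no covariate, adjusted by Benjamini-Hochberg over 17911 genes and called under 0.05; this scale understates differences of low genes. The labels do not say that hearts of a group differ in litter or day, so p-values measure the spread between these hearts. Alternatives were edgeR 4.0.16, limma-voom and DESeq2 1.42.0 on recovered reads, other pseudocounts (0.1, 10), a filter (100 in 4 hearts), equal totals, the labels' thresholds, blocks by replicate number, and leaving out each heart. In the blocked fits a heart whose number does not occur in the other sex adds nothing to the difference, so these fits have less power. A covariate for total reads and a second transcript length were chosen after seeing the data. The 12 ratios were tested by exact permutation over 70 assignments (smallest p 0.0286) and adjusted over the 12. Positions, exon lengths and overlaps came from GENCODE vM21: 22 of the 52 genes share exon bases with another gene, 9 of them with a protein-coding gene on the opposite strand. For 2 genes, Eif4e3 and Eif4ebp3, a protein-coding gene overlaps on the same strand. RefSeq promoters (GRCm38.p6) were found for 41 of 52 genes. Named genes were the 12 with the smallest p, the most abundant of each role, the eIF2 subunits and kinases, the eIF4E-binding proteins, members of a ratio, and the 3 with the smallest p in each neighbouring list. The members and lists were chosen with earlier results of these data known. The fit was tested on simulated data. Pairs of hearts within a sex differed by 8.21 to 18.4 times the variance of counting, so each heart was counted as its own sample. Pseudogene copies may share reads with these genes. Lymphocyte and red cell marker sums overlapped between the sexes (197 to 386 against 167 to 416, and 14161 to 25160.1 against 14431 to 21831 normalized reads).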

Additional observations from a re-analysis of the deposited data

Results flagged for a closer look

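Of 128 sets of 4 hearts examined (52 genes and 12 ratios in each sex), 7 had 1 heart far from the other 3, where chance gives about 1 in 20. Eif4e2 was low in male replicate 5 (3183 normalized reads, others 3391 to 3419), which narrows the gap between the sexes reported for it. Eif4ebp1 was low in female replicate 2 (3893, others 4123 to 4145). Eif2b2 was low in male replicate 1 (1466, others 1524 to 1535), and Eif2b3 was high in female replicate 3 (771, others 715 to 724). Eif2a was high in female replicate 4 (2844, others 2678 to 2703), and Eif2d was high in male replicate 4 (1896, others 1702 to 1708). The ratio of Eif1b to Eif1 was low in male replicate 1 (0.0897, others 0.0931 to 0.0935).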

How the results depend on the processing

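Of the 27 initiation factor genes followed, 21 kept their sign under every alternative, as did 9 of 12 ratios. Those that turned had main differences of up to 0.048 in size (Eif4ebp2), beside a median size of 0.043 over the 52 genes. The count of calls over all genes, 208, was 690 with DESeq2, 26 with the replicate block by library code number and 77 to 516 without 1 heart (516 without male replicate 5, 149 without female replicate 1, and 77, 110, 129, 137, 94 and 84 without female replicates 2, 3 and 4 and male replicates 1, 3 and 4). Calls among the 52 genes, 0, were 2 with DESeq2 and 0 under each other alternative. Of the other initiation genes DESeq2 called 1. Of the ATF4 genes it called 2, the filter 1, the replicate block by title number 1, and leaving out 1 heart 0 to 1 (1 without male replicate 1 or male replicate 5). Changes of sign were as follows. With the replicate block by library code number Eif4ebp2 had -0.0052, Eif1b 0.018 and Eif5a 0.010; by title number Eif1b had 0.014. With equal totals Eif2b5 had 0.0062, Eif1b 0.013 and Eif5a 0.015. With total reads as a covariate Eif4ebp1 had -0.018, Eif2b5 0.0071 and Eif5a 0.019. Eif5a had 5.9e-05 and 0.00028 in edgeR (TMM, RLE) and 0.00031 in DESeq2. Without 1 heart the ranges were -0.043 to 0.0056 (Eif2s1), -0.021 to 0.014 (Eif2b5), -0.017 to 0.0081 (Eif1b), -0.022 to 0.022 (Eif5a), -0.045 to 0.023 (Eif4g3 to Eif4g1), -0.060 to 0.078 (Eif4ebp2 to Eif4ebp1) and -0.065 to 0.050 (Eif1a to Eif1ax). The cause was not tested.

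Hearts of the sexes with the same title number did not deviate together in all pairs (correlations 0.193, -0.074 and -0.094 over 12777 genes; 1 of 3 correlated best with its own number). By library code number the correlations were 0.193, -0.074 and 0.193, and 2 of 3 correlated best with their own number, a hint from the data and not from the design. Since 1 pair stayed under 0.1 either way, the numbers were not taken to pair the hearts. Low reads limit Eif4ebp3, Eif3j2 and Eif5a2.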
